A study of Homo sapiens with 12 samples.

Results

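Homologous recombination copies the sequence of a sister chromatid to mend a broken DNA duplex, and the Fanconi anaemia pathway frees a replication fork that has met a crosslink between the DNA strands. The 36 genes described here encode proteins of both pathways, with the kinases that signal the damage and a few repair enzymes that act beside them. They were taken by symbol, as a fixed list chosen with earlier results of these data known, from the 26485 gene symbols in the files. All 36 were counted in every library and all 36 passed the filter on low counts.

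RNA was measured in 2 human lung cell lines, A549, a lung adenocarcinoma line, and BEAS-2B, an immortalised line of bronchial epithelial cells named B2B here. Cells were given 10 µM SR11302, a compound used as an inhibitor of AP-1, for 72 h (A549_SR11302 and B2B_SR11302), or 50 µM SP600125, an inhibitor of the JNK kinases that activate AP-1, for 72 h (A549_SP600125 and B2B_SP600125), or no inhibitor (A549_NT and B2B_NT). Each of the 6 groups has 2 libraries, and all cells are labelled wild type. Both inhibitors were dissolved in DMSO, and the sources differ on whether the NT cells received it: the labels call them non-treated, while the study's legend to heat maps of these RNA levels names DMSO for A549. AP-1 is the family of Jun and Fos transcription factors. The comparisons ask how transcription changes when AP-1 is inhibited, in the cancer line and in the bronchial line.

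In homologous recombination the MRE11, RAD50 and NBN complex and the kinase ATM recognise a double-strand break, EXO1 and other nucleases resect its ends, and BRCA1, PALB2 and BRCA2 prepare the single strand for its search for the sister sequence. RAD51C, XRCC2 and XRCC3 steady the protein filament that makes this search, RAD54L drives the exchange of strands, and the joined molecules are dissolved by BLM with RMI1 and RMI2 or cut by MUS81 with EME1. In the Fanconi pathway a core complex that includes FANCA, FANCB, FANCC, FANCE, FANCF, FANCG, FANCL and FANCM works with the ubiquitin-conjugating enzyme UBE2T to attach ubiquitin to FANCD2 and FANCI, which then recruit nucleases and recombination factors. Most of these genes are transcribed more in S and G2 phase than in G1, when a sister chromatid is present or being made. In RNA from whole cultures, fewer cells in such a phase and less RNA per cell cannot be told apart.

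The promoters of 5 genes are shown, chosen as those with the largest falls among members called lower under each inhibitor in A549 (comparisons that share their NT libraries), so that the letters bound by AP-1 and by cell cycle factors can be looked for beside the RNA values. They are RefSeq sequences (build GRCh38.p14), 5′ to 3′ on the strand of the gene, beginning 250 bases before the annotated transcription start and ending 30 bases after it. Capitals mark matches on either strand to 5 motifs, which are TGANTCA (AP-1), TGACGTCA (CRE), CCAAT (NF-Y), TTTGAA (CHR, the cell cycle homology region bound by the DREAM and MuvB complexes), and any of TTCCCGCC, TTTCCCGC, TTTGGCGC and TTTCGCGC (E2F). Overlapping matches were counted separately.
FANCA: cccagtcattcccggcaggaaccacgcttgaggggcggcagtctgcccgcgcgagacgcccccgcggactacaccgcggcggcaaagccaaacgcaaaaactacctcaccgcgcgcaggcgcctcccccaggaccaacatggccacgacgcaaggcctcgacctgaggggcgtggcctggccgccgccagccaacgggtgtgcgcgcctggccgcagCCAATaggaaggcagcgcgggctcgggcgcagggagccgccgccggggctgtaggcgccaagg
XRCC3: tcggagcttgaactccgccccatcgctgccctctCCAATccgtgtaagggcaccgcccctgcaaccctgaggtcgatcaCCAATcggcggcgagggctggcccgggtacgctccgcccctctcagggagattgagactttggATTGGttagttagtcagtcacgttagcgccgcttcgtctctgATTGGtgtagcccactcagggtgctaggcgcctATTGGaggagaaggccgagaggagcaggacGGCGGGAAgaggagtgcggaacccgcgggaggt
FANCE: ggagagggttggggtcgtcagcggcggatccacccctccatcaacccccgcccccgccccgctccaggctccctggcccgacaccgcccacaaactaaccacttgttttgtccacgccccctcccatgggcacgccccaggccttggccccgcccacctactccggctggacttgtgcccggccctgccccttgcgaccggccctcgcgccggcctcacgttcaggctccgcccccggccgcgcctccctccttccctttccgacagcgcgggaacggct
CHEK2: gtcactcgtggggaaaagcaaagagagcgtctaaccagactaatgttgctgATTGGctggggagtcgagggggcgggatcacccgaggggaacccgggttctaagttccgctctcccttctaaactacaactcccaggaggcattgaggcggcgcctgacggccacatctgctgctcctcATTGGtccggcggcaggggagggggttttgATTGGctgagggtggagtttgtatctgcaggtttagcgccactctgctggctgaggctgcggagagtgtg
FANCC: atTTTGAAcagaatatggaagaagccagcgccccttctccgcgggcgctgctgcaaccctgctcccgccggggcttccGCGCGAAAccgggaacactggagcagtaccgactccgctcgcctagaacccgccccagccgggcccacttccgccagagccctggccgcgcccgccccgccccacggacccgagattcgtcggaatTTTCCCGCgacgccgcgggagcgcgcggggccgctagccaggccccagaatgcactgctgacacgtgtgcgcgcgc

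The FANCA window is chr16:89816618-89816897 on the minus strand. The XRCC3 window is chr14:103715422-103715701 on the minus strand. The FANCE window is chr6:35452088-35452367 on the plus strand. The CHEK2 window is chr22:28741791-28742070 on the minus strand. The FANCC window is chr9:95317680-95317959 on the minus strand. XRCC3 held 1 E2F match and 5 CCAAT boxes, FANCC 2 E2F matches and 1 CHR, CHEK2 3 CCAAT boxes, FANCA 1 CCAAT box and FANCE none of the 5 motifs. None of the 5 held TGANTCA or TGACGTCA.

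A RefSeq promoter was found for 32 of the 36 genes, all but RAD54B, NBN, FANCI and RMI2, and motifs were searched in windows that run from 250 bases before to 50 bases after the start. For each gene only the first listed promoter was searched, out of 35116 promoters of 27305 genes, so other annotated starts were left out. This holds for the 5 promoters shown as well. An E2F match lay in 12 of the 32 windows (37.5%), against 5.1% of the windows of all 27305 genes searched the same way. CCAAT lay in 16 (50.0%), against 35.7% of all, CHR in 5 (15.6%), against 15.4%, and TGACGTCA in 3 (9.4%), against 2.0%. The AP-1 letters TGANTCA lay in 0 of the 32, against 7.8% of all windows. An E2F match lay in 7 of the 17 windows of genes that fell under SP600125 in A549, where 25.0% of all tested genes fell, and in 5 of the 15 others. In the 150 bases before the start alone, the count with an E2F match was 5 of 32 (15.6%), against 2.9% of all. A match is a string of letters and was not tested for binding, and its absence concerns this window only.

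Each library held between 13969766 and 24917854 reads counted in genes. Differences between the libraries of any 1 group exceeded counting noise in all 6 groups, but unequally. Chi-square per degree of freedom, higher where the libraries of a group differ more, was 40.82 in A549_SR11302 and 12.67 in B2B_SR11302. It was 9.76 in A549_NT, 8.34 in B2B_SP600125, 2.68 in B2B_NT and 2.49 in A549_SP600125. The tests use a spread per gene pooled over all groups, so SE and p-values do not follow that of any 1 pair. The share of reads in no annotated gene was 14.6 to 20.1% in the 8 treated libraries and 23.8 to 25.9% in the 4 NT libraries, a split that follows treatment in both lines, and its part in the results was not tested. Levels are given in CPM, the reads of a gene as a share of a common library total after TMM scaling, which evens out differences in composition between libraries. EPCAM, an epithelial adhesion protein, was at 23.4 CPM or above in all 6 A549 libraries and at 2.55 CPM or below in all 6 B2B libraries, which are labelled as epithelial cells. The 5 epithelial markers summed to 5070 to 5090 CPM in A549_SP600125 and 5380 to 6410 CPM in A549_SR11302, against 11700 to 13400 CPM in A549_NT, and to 400 to 436 CPM in B2B_SP600125 and 543 to 633 CPM in B2B_SR11302, against 781 to 870 CPM in B2B_NT. KRT8 and KRT18 made up most of these sums, and CDH1, the epithelial cadherin, went the other way under SP600125, at 438 and 380 CPM in A549_SP600125, against 122 and 128 CPM in A549_NT, and at 3.38 and 2.37 CPM in B2B_SP600125, against 0.575 and 1.79 CPM in B2B_NT. Of the alveolar type II list of 7 genes, the surfactant gene SFTPC stood at 0.224 CPM or below in every library. The list summed to 46.6 to 75.4 CPM over the A549 libraries and to 48.5 to 97.4 CPM over the B2B libraries, nearly all of it ABCA3, a lipid transporter, at 73.8 and 62.3 CPM in A549_NT, against 44.9 and 45.8 CPM in B2B_NT. With SR11302 ABCA3 was instead lower in A549, at 45.4 and 47.7 CPM, against 88.1 and 92.8 CPM in B2B. At low levels, NKX2-1 was lower in A549_NT (0 and 0.0531 CPM, against 2.44 and 2.85 CPM in B2B_NT). LAMP3 was so as well (0.111 and 0.106 CPM, against 0.335 and 0.611 CPM). KRT5, the defining keratin of airway basal cells, stood at 0.122 CPM or below in the B2B libraries, which did hold KRT17 (38.9 to 59.2 CPM in B2B_SP600125 and 242 to 296 CPM in B2B_SR11302, against 388 to 418 CPM in B2B_NT). Of the same basal list, TP63 went the other way at low levels, with 1.67 and 1.12 CPM in A549_NT, against 0 and 0.0407 CPM in B2B_NT. KRT14 stood at 0.192 CPM or below in every library. The fibroblast list of 6 genes summed to 465 to 484 CPM in B2B_SP600125 and 3260 to 3480 CPM in B2B_SR11302, against 4520 to 4610 CPM in B2B_NT. COL1A1 led it, at 372 and 382 CPM in B2B_SP600125, against 4300 and 4390 CPM in B2B_NT, while PDGFRB stood at 64.1 and 71.7 CPM in B2B_SP600125, against 62.9 and 61.2 CPM in B2B_NT. Immune markers were led by CD68, with CD3E at 0 in all 12 libraries, and summed to 3.93 to 4.02 CPM in A549_SP600125, against 46.1 to 50.3 CPM in A549_NT. The 4 endothelial markers summed to 16.3 to 16.8 CPM in A549_SP600125, against 0.278 to 0.319 CPM in A549_NT, and to 7.85 to 11 CPM in B2B_SP600125, against 1.34 to 1.38 CPM in B2B_NT. The part of these markers in the repair results was not tested.

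Scaled to the length of the canonical transcript, the genes spanned a wide range of levels. In untreated A549 the highest were UBE2T at 80.1, the mismatch sensor MSH6 at 66.2 and FANCI at 47.3 CPM per kilobase, and the lowest were FANCE at 3.21, FANCB at 3.59, FANCM at 3.70 and BRCA2 at 3.72 CPM per kilobase. In B2B_NT the same 3 genes stood at the top, UBE2T at 59.4, MSH6 at 45.6 and FANCI at 40.3 CPM per kilobase, and FANCF was lowest at 1.92 CPM per kilobase. All levels from here on are in CPM and are not divided by length.

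**Figure D1:**
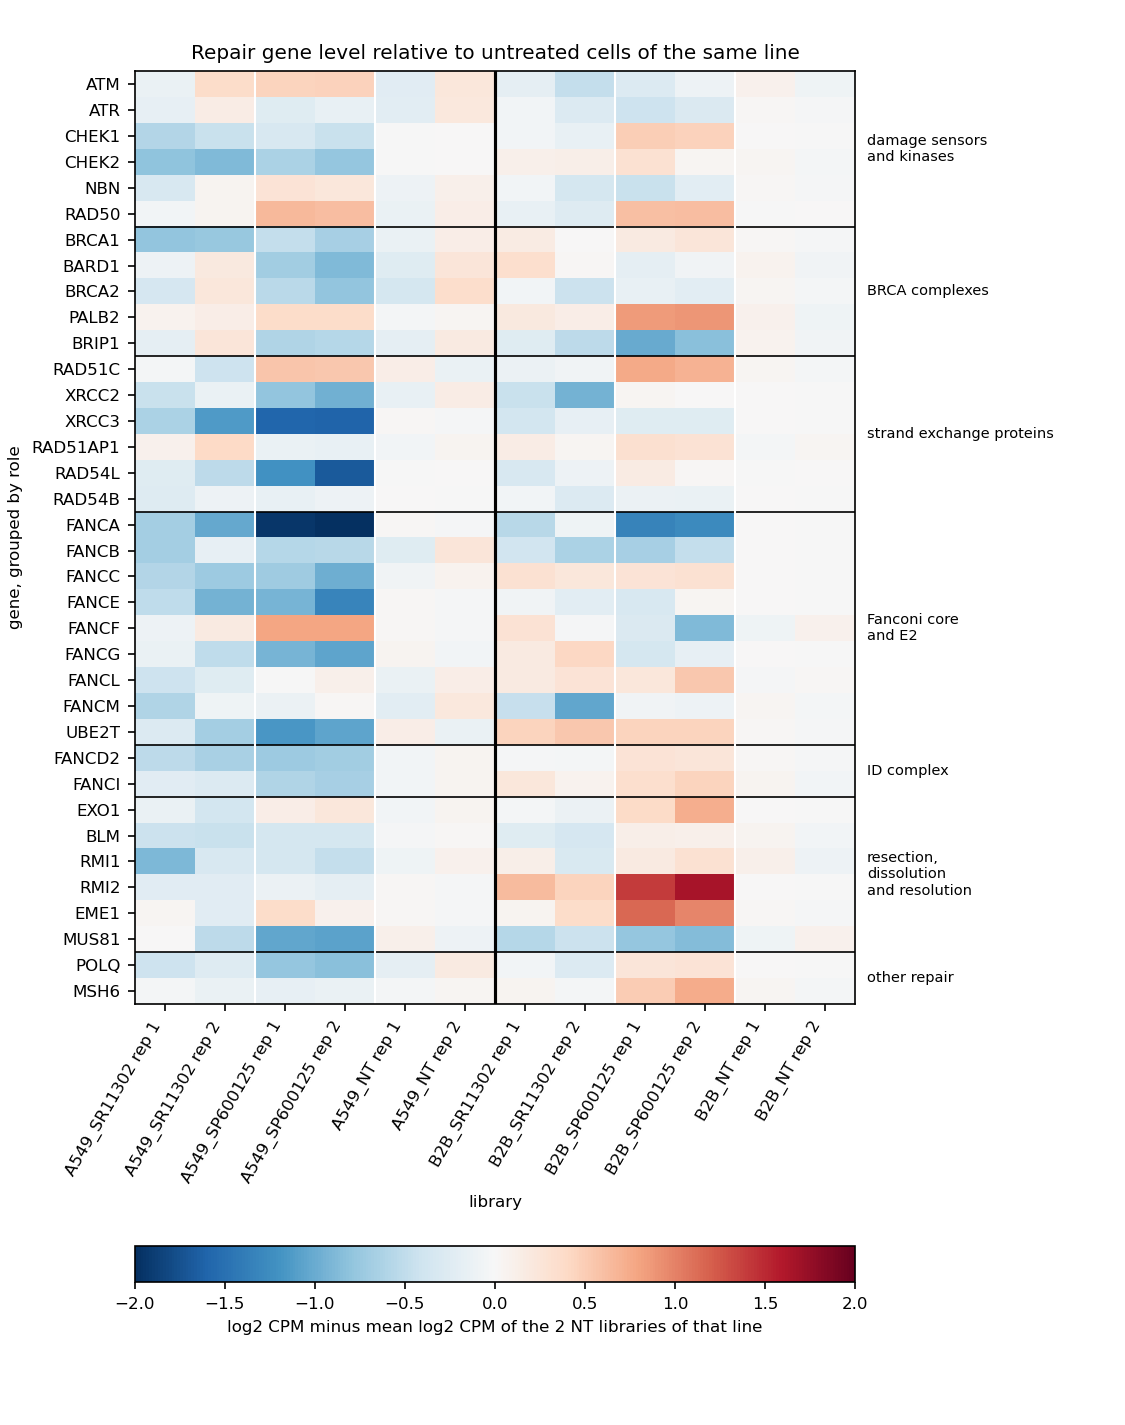
Level of each of the 36 genes (rows, grouped by role) in each of the 12 libraries (columns), as log2 CPM minus the mean log2 CPM of the 2 NT libraries of the same line, where blue is lower and red higher. The A549_SP600125 columns hold the deepest blue, in FANCA, XRCC3 and RAD54L, and the B2B_SP600125 columns the deepest red, in RMI2 and EME1.

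In A549 both inhibitors lowered part of the set. Coordinates of genes are those of GENCODE v44 on hg38, the build of the alignments. A gene was called where edgeR's quasi-likelihood test over 16373 genes gave an adjusted p under 0.05 and the log2 fold change reached 0.5 in either direction. SR11302 lowered 9 of the 36 genes and raised none, where 13.0% of all tested genes were called lower and 14.8% higher. SP600125 lowered 18 and raised 3, against 25.0% of all genes lower and 23.9% higher. The median log2 fold change of the 36 genes was -0.27 under SR11302 and -0.49 under SP600125, and that of all genes 0.02 in both. With a correction for GC content, described below, the counts under SP600125 were 1 higher and 23 lower. Both comparisons use the same A549_NT libraries, so they are not independent of each other.

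In B2B the shares of the 36 genes that were called were near or below those of all genes. SR11302 raised 1 gene and lowered 2, where all genes gave 11.4% higher and 11.1% lower, and the median was -0.10. SP600125 raised 7 and lowered 5, against 21.2% of all genes higher and 22.6% lower, with a median of 0.15. The split under SP600125 depended on scaling, since with library size alone 11 were higher and 3 lower. Under SR11302 that scaling gave 2 higher and 2 lower. It moved the median of all genes to 0.15 under SP600125 in B2B and to 0.14 under SR11302 in A549, against 0.01 and 0.02 with TMM, and to -0.07 between the untreated lines, against 0.05. The B2B comparisons also share their NT libraries. Without B2B_NT replicate 1 no gene of the set was called under SR11302, and the counts under SP600125 were 7 higher and 3 lower without either B2B_NT library.

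**Figure D2:**
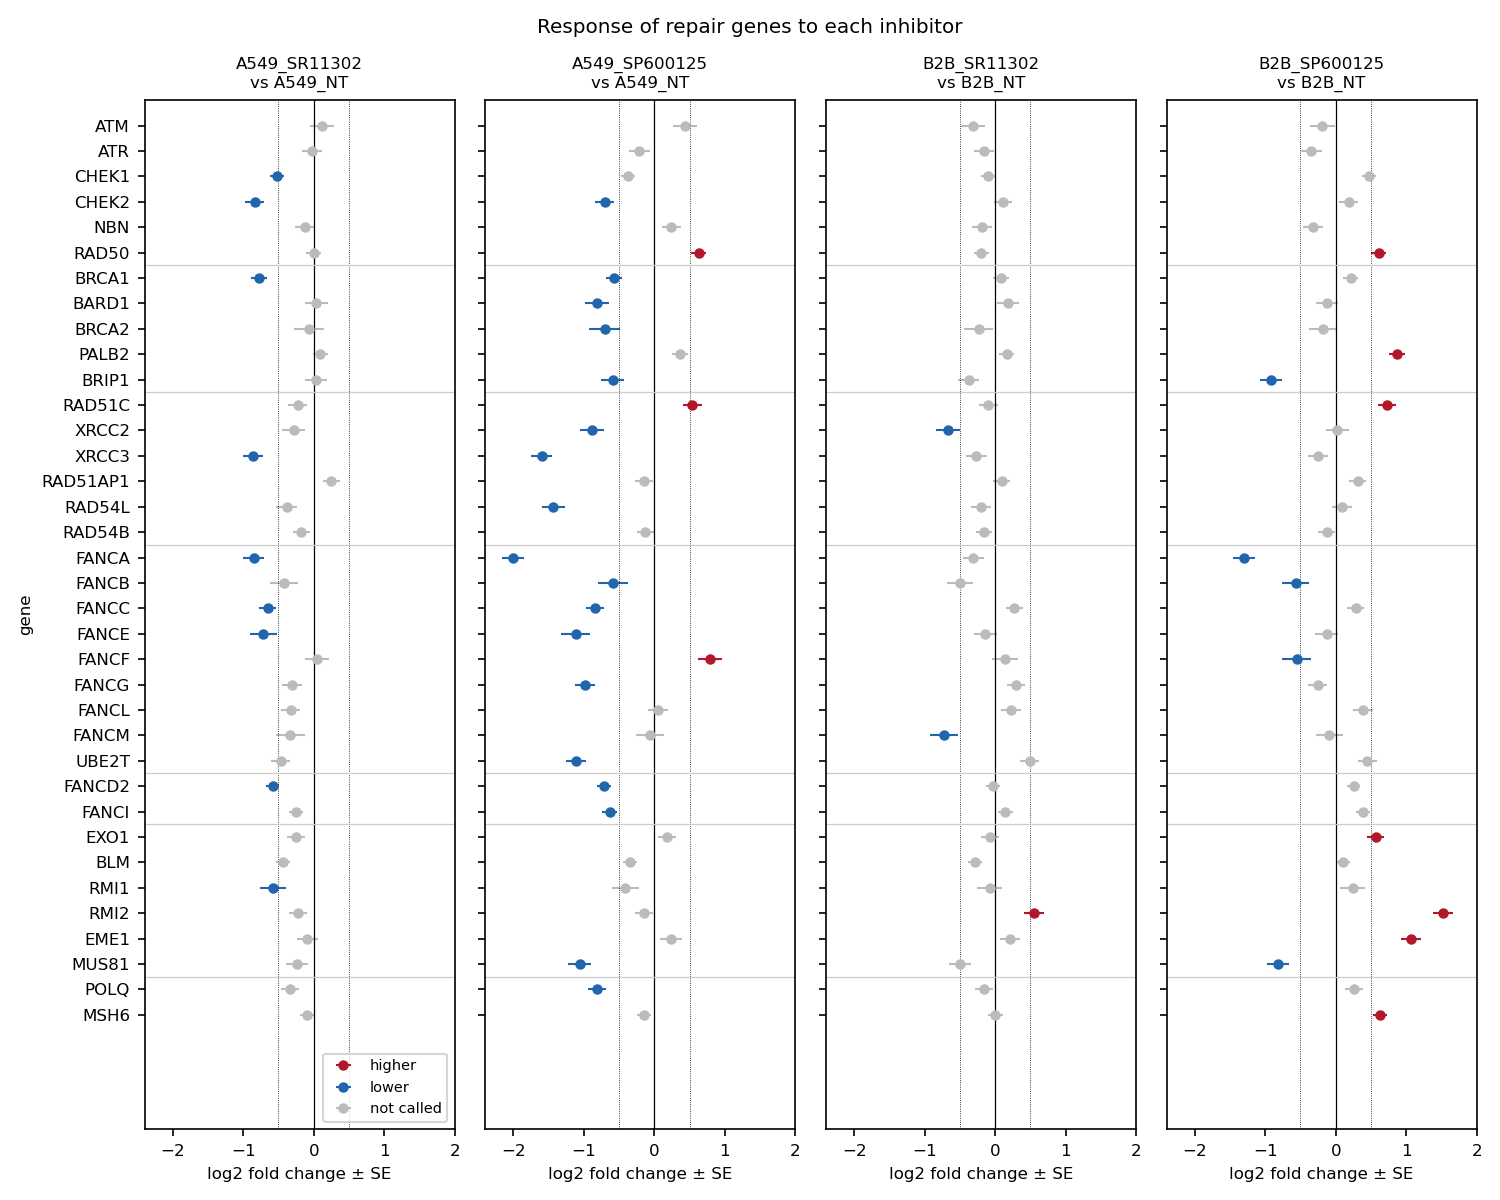
Log2 fold change ± SE of each gene (rows, by role) in the 4 treatment comparisons (panels), with called genes in red (higher) or blue (lower) and dotted lines at the fold minimum of 0.5. In A549_SP600125, 18 genes lie left of the line as called and 3 right of it, while in B2B_SP600125 the calls are 5 and 7.

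Among the damage sensors and kinases, the checkpoint kinase CHEK2 (chr22:28687743-28742422, minus strand), which ATM activates after a break, fell in A549 under each inhibitor. CHEK2 stood at 12.2 and 11.5 CPM in A549_SR11302, 13.6 and 12.3 CPM in A549_SP600125, against 21.2 and 21.2 CPM in A549_NT, with log2 fold changes of -0.84 ± 0.14, adjusted p = 0.00037 and -0.71 ± 0.14, adjusted p = 0.000627. Every treated A549 library was below both NT libraries. Such separation of 2 against 2 libraries was common, here and for the genes below, and its share over all genes was not counted. Among the 36 genes, both SR11302 libraries lay below NT for 20 and above for 2 in A549. In B2B they did so for 21 and 10, where 2 were called lower and 1 higher. In B2B, CHEK2 stood at 19.04 and 19.3 CPM in B2B_SR11302, 21.99 and 18.2 CPM in B2B_SP600125, against 18.2 and 17.3 CPM in B2B_NT, and it was called in neither comparison (0.11 ± 0.13 and 0.18 ± 0.13). CHEK1, the kinase that ATR activates at stalled forks, fell under SR11302 in A549 (-0.52 ± 0.10, adjusted p = 0.00151), a call lost without A549_SR11302 replicate 1 (-0.45) and with library size scaling (-0.40). Under SP600125 its change of -0.38 ± 0.10 in A549 stayed inside the fold minimum. In B2B its change of 0.48 ± 0.10 passed the test (adjusted p = 0.00122) inside the fold minimum, and was called with library size scaling (0.615). CHEK1 shares 18.2% of its exon bases with another annotated gene on the opposite strand. ATM had log2 fold changes of 0.12 ± 0.17 and 0.43 ± 0.17 in A549 under SR11302 and SP600125, and ATR of -0.02 ± 0.15 and -0.21 ± 0.15, none of them called. For CHEK2, 88.0% of 50-base windows of its exons occurred once in hg38, so part of its reads may have been left out as not unique.

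RAD50 (chr5:132556019-132646349, plus strand), the long coiled-coil ATPase that tethers broken ends, was higher under SP600125 in both lines. It stood at 268 and 264 CPM in A549_SP600125, against 156 and 188 CPM in A549_NT (0.63 ± 0.11, adjusted p = 0.000183), and at 237 and 239.6 CPM in B2B_SP600125, against 155 and 157 CPM in B2B_NT (0.61 ± 0.11, adjusted p = 0.000264). The groups did not overlap in either line. Under SP600125 the libraries lay above NT for 8 of the 36 genes in A549 and 19 in B2B, and below for 25 and 14. The share of all genes so separated was not counted, so these counts are not a result about the set. By the separate rule of calling, 23.9% of all genes in A549 and 21.2% in B2B were higher. With the GC correction the changes of RAD50 were 0.30 and 0.48, inside the fold minimum in both lines. In GENCODE v44, 91.0% of the exon bases of RAD50 lie also in other genes, one of them a transcript model on the same strand, so these reads may not all be RAD50 reads. NBN, its partner in the complex, was not called under any treatment (-0.13 ± 0.14 and 0.24 ± 0.14 in A549, -0.19 ± 0.14 and -0.33 ± 0.14 in B2B).

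Of the 5 genes around BRCA1 and BRCA2, 4 fell in A549 under SP600125 (25.0% of all genes) and 1 under SR11302 (13.0% of all genes). BRCA1 (chr17:43044295-43170245, minus strand), the ubiquitin ligase that promotes end resection, stood at 59.9 and 60.9 CPM in A549_SR11302, 74.6 and 65.5 CPM in A549_SP600125, against 93.9 and 114 CPM in A549_NT. Its log2 fold change was -0.78 ± 0.12, adjusted p = 0.000185 under SR11302 and -0.57 ± 0.12, adjusted p = 0.000846 under SP600125, with all 4 treated libraries below the NT libraries. The call under SP600125 was lost without A549_NT replicate 2 (-0.42) or A549_SP600125 replicate 2 (-0.47) and with library size scaling (-0.49). In B2B, BRCA1 stood at 140.4 and 126 CPM in B2B_SR11302, 142 and 149 CPM in B2B_SP600125, against 128 and 124 CPM in B2B_NT, not called in either comparison. BARD1, which pairs with BRCA1, fell under SP600125 alone in A549 (-0.81 ± 0.17, adjusted p = 0.0012, against 0.04 ± 0.17 under SR11302), and that difference between the inhibitors was not tested.

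BRCA2, a mediator of strand exchange, stood at 34.3 and 50.4 CPM in A549_SR11302, 29.7 and 25.02 CPM in A549_SP600125, against 34.1 and 54.96 CPM in A549_NT, and its NT libraries lay far apart. Its change under SP600125 was -0.71 ± 0.22, adjusted p = 0.0133, and the call was lost without A549_NT replicate 2 (-0.32, adjusted p = 0.244) or A549_SP600125 replicate 2 (-0.58, adjusted p = 0.109). BRIP1, the helicase that binds BRCA1 and is also the Fanconi protein FANCJ, fell under SP600125 in both lines. It stood at 25.6 and 26.3 CPM in A549_SP600125, against 34.3 and 43.9 CPM in A549_NT (-0.59 ± 0.16, adjusted p = 0.00668), and at 90.2 and 103 CPM in B2B_SP600125, against 192 and 173 CPM in B2B_NT (-0.92 ± 0.15, adjusted p = 0.000201). The A549 call was lost without A549_NT replicate 2 (-0.40, adjusted p = 0.0887). PALB2, the bridge between BRCA1 and BRCA2, went the other way in B2B under SP600125, at 73.9 and 75.7 CPM in B2B_SP600125, against 43.5 and 38.4 CPM in B2B_NT (0.87 ± 0.11, adjusted p = 1.68e-05). Its rise in A549 of 0.37 ± 0.11 passed the test (adjusted p = 0.0115) and stayed inside the fold minimum.

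Among the strand exchange proteins, XRCC3 (chr14:103697609-103715504, minus strand) fell under each inhibitor in A549 and was among the lowest of the set under SP600125, with a smaller change of -0.80 there once GC content was corrected for. It stood at 40.2 and 28.5 CPM in A549_SR11302, 20.8 and 20.5 CPM in A549_SP600125, against 63.7 and 61.2 CPM in A549_NT, with log2 fold changes of -0.86 ± 0.14, adjusted p = 0.000471 and -1.60 ± 0.15, adjusted p = 1.56e-06. No treated library reached the level of the NT libraries, and the SR11302 libraries lay between the SP600125 and NT libraries. In B2B it stood at 32.98 and 37.9 CPM in B2B_SR11302, 35.8 and 35.7 CPM in B2B_SP600125, against 42.5 and 42.5 CPM in B2B_NT, below NT in every treated library and not called (-0.26 ± 0.14 and -0.25 ± 0.14). RAD54L (chr1:46246461-46278480, plus strand), the motor protein of strand exchange, fell in A549 under SP600125, at 12 and 8.69 CPM in A549_SP600125, against 27.7 and 27.98 CPM in A549_NT (-1.43 ± 0.16, adjusted p = 7.36e-06). Under SR11302 it was -0.38 ± 0.15 in A549 (adjusted p = 0.0602), and in B2B -0.20 ± 0.14 and 0.09 ± 0.14 under SR11302 and SP600125. Its exons share 18.4% of their bases with LRRC41 on the opposite strand. Its relative RAD54B changed by -0.18 ± 0.12 and -0.13 ± 0.12 in A549 and was not called.

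XRCC2, a paralog of the same complex as RAD51D, fell in A549 under SP600125 (-0.88 ± 0.17, adjusted p = 0.000634). In B2B it was called under SR11302 instead, at 26.6 and 18.8 CPM in B2B_SR11302, against 36.5 and 35.8 CPM in B2B_NT (-0.67 ± 0.17, adjusted p = 0.00894), a call lost without B2B_NT replicate 1 (-0.65, adjusted p = 0.0534) or B2B_SR11302 replicate 2 (-0.44, adjusted p = 0.107). RAD51C (chr17:58692573-58735611, plus strand), which pairs with XRCC3, was higher under SP600125 in both lines. It stood at 54.5 and 53.8 CPM in A549_SP600125, against 40.7 and 33.9 CPM in A549_NT (0.54 ± 0.13, adjusted p = 0.00338), and at 64.9 and 62.2 CPM in B2B_SP600125, against 39.3 and 37.3 CPM in B2B_NT (0.73 ± 0.13, adjusted p = 0.000393). The A549 rise was 0.21, adjusted p = 0.231 with the GC correction and was not called without A549_NT replicate 2 (0.41). RAD51AP1, which stimulates strand exchange, was called in no treatment comparison (0.25 ± 0.12 and -0.15 ± 0.12 in A549, 0.10 ± 0.12 and 0.31 ± 0.12 in B2B).

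**Figure D3:**
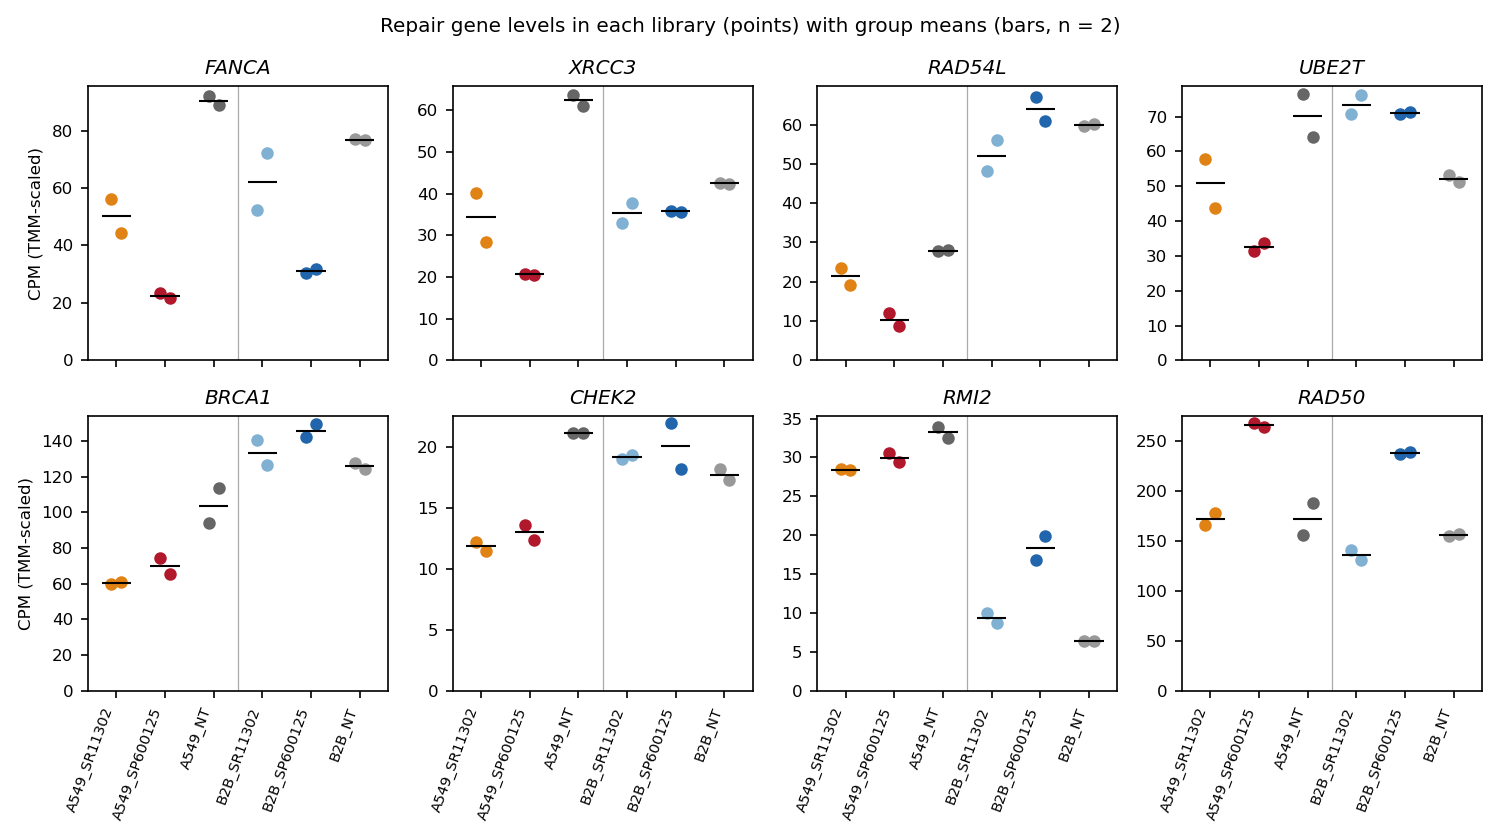
CPM after TMM scaling of 8 genes in each library (points, linear axis from 0), with the mean of the 2 libraries of a group as a bar. FANCA, XRCC3, BRCA1 and CHEK2 lie lower in all 4 treated A549 libraries than in the A549_NT libraries, while RMI2 is higher in the treated B2B libraries than in the B2B_NT libraries.

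The Fanconi core complex held the gene with the largest fall. FANCA, a subunit of the core complex encoded at chr16:89726683-89816977, minus strand, stood at 56.1 and 44.4 CPM in A549_SR11302, 23.5 and 21.6 CPM in A549_SP600125, against 91.99 and 88.8 CPM in A549_NT, with log2 fold changes of -0.85 ± 0.15, adjusted p = 0.000685 and -2.003 ± 0.16, adjusted p = 3.85e-07. In B2B it stood at 52.2 and 72.1 CPM in B2B_SR11302, 30.4 and 31.95 CPM in B2B_SP600125, against 77.01 and 76.7 CPM in B2B_NT, and fell under SP600125 (-1.30 ± 0.15, adjusted p = 1.05e-05) with no call under SR11302 (-0.31 ± 0.15). Without B2B_SR11302 replicate 2 FANCA was called lower there (-0.55). The SP600125 libraries of both lines were below all their SR11302 and NT libraries. In all, 6 of the 9 genes of the core and its E2 enzyme fell under SP600125 in A549 (25.0% of all genes) and 3 under SR11302 (13.0% of all genes). FANCA shares 24.4% of its exon bases with ZNF276 on the opposite strand.

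FANCC and FANCE, which with FANCF form one module of the core complex, fell under each inhibitor in A549. FANCC stood at 23.7 and 21.6 CPM in A549_SR11302, 21.6 and 18.1 CPM in A549_SP600125, against 33.7 and 37.5 CPM in A549_NT (-0.65 ± 0.12, adjusted p = 0.00109 and -0.85 ± 0.13, adjusted p = 7.26e-05). FANCE was a low gene, at 5.78 and 4.31 CPM in A549_SR11302, 4.32 and 3.31 CPM in A549_SP600125, against 8.39 and 8.12 CPM in A549_NT (-0.72 ± 0.19, adjusted p = 0.00983 and -1.12 ± 0.21, adjusted p = 0.000439). The treated and NT libraries of A549 did not overlap for either gene. The FANCE call under SR11302 was lost without A549_NT replicate 1 (-0.69, adjusted p = 0.0581) or A549_SR11302 replicate 2 (-0.49, adjusted p = 0.0843). In B2B neither was called, with FANCC at 0.27 ± 0.12 and 0.29 ± 0.12 and FANCE at -0.14 ± 0.16 and -0.13 ± 0.16.

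FANCF, the third protein of that module, went against its partners. It was higher in A549 under SP600125, at 32.7 and 32.9 CPM in A549_SP600125, against 19.3 and 18.6 CPM in A549_NT (0.79 ± 0.17, adjusted p = 0.00119). In B2B it was lower, at 5.15 and 3.41 CPM in B2B_SP600125, against 5.94 and 6.72 CPM in B2B_NT (-0.56 ± 0.20, adjusted p = 0.0334), a call lost without B2B_NT replicate 1 (-0.64, adjusted p = 0.0537), B2B_NT replicate 2 (-0.46, adjusted p = 0.172) or B2B_SP600125 replicate 2 (-0.30, adjusted p = 0.285) and with library size scaling (-0.42, adjusted p = 0.108). FANCF has a single exon in the annotation.

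UBE2T (chr1:202331544-202341984, minus strand), the E2 enzyme that passes ubiquitin to FANCD2 and FANCI with the help of FANCL, fell in A549 under SP600125, at 57.9 and 43.8 CPM in A549_SR11302, 31.4 and 33.6 CPM in A549_SP600125, against 76.5 and 64.04 CPM in A549_NT (-1.11 ± 0.14, adjusted p = 1.7e-05). Its change under SR11302 was -0.47 ± 0.13 (adjusted p = 0.0153) and stayed just inside the fold minimum. It was called there with the GC correction (-0.54) and without A549_NT replicate 2 (-0.59) or A549_SR11302 replicate 1 (-0.68). In B2B it stood at 70.8 and 76.2 CPM in B2B_SR11302, 70.9 and 71.3 CPM in B2B_SP600125, against 53.2 and 51.2 CPM in B2B_NT, above NT in every treated library, with changes of 0.49 ± 0.13 and 0.45 ± 0.13 that passed the test (adjusted p = 0.0139 and adjusted p = 0.0122) inside the fold minimum. Library size scaling gave 0.57 and 0.59, and under SR11302 the GC correction gave 0.52 and leaving out B2B_SR11302 replicate 1 gave 0.55, all called. FANCG fell under SP600125 in A549 (-0.99 ± 0.14, adjusted p = 5.48e-05), and FANCB fell in A549 (-0.59 ± 0.21, adjusted p = 0.0273) and in B2B, at 12.2 and 13.9 CPM in B2B_SP600125, against 19.4 and 19.2 CPM in B2B_NT (-0.57 ± 0.19, adjusted p = 0.0209). FANCB lost its A549 call without A549_NT replicate 2 (-0.32, adjusted p = 0.281), A549_SP600125 replicate 1 (-0.58, adjusted p = 0.106) or A549_SP600125 replicate 2 (-0.59, adjusted p = 0.1) and its B2B call without B2B_NT replicate 1 (-0.56, adjusted p = 0.0755), B2B_NT replicate 2 (-0.57, adjusted p = 0.0736) or B2B_SP600125 replicate 1 (-0.51, adjusted p = 0.117). With library size scaling FANCB was -0.51, adjusted p = 0.0581 in A549 and -0.43, adjusted p = 0.079 in B2B.

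FANCM, the translocase that anchors the core complex at forks, was called only in B2B under SR11302 among the treatment comparisons, at 26.9 and 18.03 CPM in B2B_SR11302, against 38.3 and 35.99 CPM in B2B_NT (-0.72 ± 0.20, adjusted p = 0.0153). The B2B_SR11302 libraries differed widely, and the call was lost without B2B_NT replicate 1 (-0.68, adjusted p = 0.0835), B2B_NT replicate 2 (-0.76, adjusted p = 0.0515) or B2B_SR11302 replicate 2 (-0.46, adjusted p = 0.157). FANCL, the ubiquitin ligase of the complex, which shares 27.3% of its exon bases with VRK2 on the opposite strand, was called under neither inhibitor (-0.33 ± 0.14 and 0.05 ± 0.14 in A549, 0.23 ± 0.15 and 0.39 ± 0.15 in B2B).

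FANCD2 and FANCI, the pair that receives ubiquitin, fell in A549. FANCD2 stood at 74.97 and 68.4 CPM in A549_SR11302, 64.8 and 66.2 CPM in A549_SP600125, against 103 and 112 CPM in A549_NT (-0.58 ± 0.10, adjusted p = 0.000434 and -0.71 ± 0.10, adjusted p = 3.36e-05), and all treated libraries were below the NT libraries. FANCI fell under SP600125 (-0.64 ± 0.10, adjusted p = 0.000117) and was -0.25 ± 0.10 under SR11302. The FANCD2 call under SR11302 was lost without A549_SR11302 replicate 2 (-0.50) and with library size scaling (-0.47). In B2B under SP600125 the pair was at 0.26 ± 0.10 and 0.39 ± 0.10, positive and inside the fold minimum, and under SR11302 at -0.03 ± 0.10 and 0.15 ± 0.10. Of the 50-base windows of FANCD2, 88.7% were unique.

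RMI2 (chr16:11249619-11381662, plus strand), a small subunit of the complex in which BLM dissolves joined duplexes, had the largest rise of the set, in B2B. It stood at 9.95 and 8.73 CPM in B2B_SR11302, 16.8 and 19.96 CPM in B2B_SP600125, against 6.42 and 6.35 CPM in B2B_NT, with log2 fold changes of 0.55 ± 0.14, adjusted p = 0.0106 and 1.52 ± 0.14, adjusted p = 1.33e-06. All 4 treated B2B libraries were above NT, and the call under SR11302 was lost without B2B_NT replicate 1 (0.56, adjusted p = 0.0679), B2B_NT replicate 2 (0.55, adjusted p = 0.0769) or B2B_SR11302 replicate 1 (0.45, adjusted p = 0.0839) and with the GC correction (0.49). In A549, RMI2 stood at 28.5 and 28.4 CPM in A549_SR11302, 30.6 and 29.4 CPM in A549_SP600125, against 33.9 and 32.6 CPM in A549_NT and was not called (-0.23 ± 0.12 and -0.15 ± 0.13). RMI1, the other small subunit, fell in A549 under SR11302 (-0.58 ± 0.19, adjusted p = 0.0265). That call was lost without A549_NT replicate 1 (-0.66, adjusted p = 0.0548), A549_NT replicate 2 (-0.48, adjusted p = 0.145) or A549_SR11302 replicate 1 (-0.32, adjusted p = 0.143), with library size scaling (-0.45, adjusted p = 0.0811) and when only the 2 compared groups were fitted (-0.59, adjusted p = 0.0834). BLM itself passed the test in A549 under each inhibitor inside the fold minimum (-0.43 ± 0.10, adjusted p = 0.00434 and -0.35 ± 0.10, adjusted p = 0.0085).

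MUS81 and EME1 form a nuclease that cuts branched DNA, and under SP600125 in B2B the transcript of MUS81 fell while that of EME1 rose. MUS81 stood at 18.6 and 18.1 CPM in A549_SP600125, against 40.96 and 35.6 CPM in A549_NT (-1.06 ± 0.16, adjusted p = 8.97e-05), and at 31.3 and 29.6 CPM in B2B_SP600125, against 50.9 and 56.96 CPM in B2B_NT (-0.82 ± 0.15, adjusted p = 0.000524). EME1 stood at 57.02 and 50.6 CPM in B2B_SP600125, against 25.96 and 25.4 CPM in B2B_NT (1.07 ± 0.14, adjusted p = 3.57e-05), and was 0.23 ± 0.15 in A549 with no call. Under SR11302 MUS81 stood at 36.4 and 40 CPM in B2B_SR11302, against 50.9 and 56.96 CPM in B2B_NT (-0.50 ± 0.15, adjusted p = 0.0249), at the edge of the fold minimum and called lower by DESeq2 (-0.51), with the compared groups alone (-0.52) and with the GC correction (-0.60). In A549 it was -0.24 ± 0.15, and -0.52 and called without A549_SR11302 replicate 1. With the GC correction the fall of MUS81 in A549 under SP600125 was -0.45, inside the fold minimum. EXO1, the resecting exonuclease, was higher in B2B under SP600125 (0.57 ± 0.13, adjusted p = 0.00183), a call lost without B2B_SP600125 replicate 2 (0.39) and with the GC correction (0.41), and was 0.18 ± 0.13 in A549. EME1 shares 10.6% of its exon bases with LRRC59 on the opposite strand.

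Of the other repair enzymes in the set, POLQ, the polymerase of a mutagenic end joining route, fell in A549 under SP600125 (-0.82 ± 0.13, adjusted p = 0.000125) and was -0.34 ± 0.13 under SR11302. MSH6, a subunit of the mismatch sensor, was higher in B2B under SP600125, at 278 and 325 CPM in B2B_SP600125, against 199.6 and 189 CPM in B2B_NT (0.63 ± 0.10, adjusted p = 0.000169). That rise was 0.46 with the GC correction. In A549, MSH6 was -0.09 ± 0.10 under SR11302 and -0.15 ± 0.10 under SP600125.

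Leaving out 1 library also added calls. In A549 under SR11302, RAD54L (-0.53) and FANCG (-0.51) were called lower without A549_SR11302 replicate 1, FANCB (-0.68) and FANCM (-0.59) without A549_SR11302 replicate 2, and POLQ (-0.51) without A549_NT replicate 1. Under SP600125, ATM was called higher in A549 without A549_NT replicate 2 (0.68) and with library size scaling (0.51), and FANCL in B2B without B2B_SP600125 replicate 1 (0.50).

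Without treatment the lines differed in 17 of the 36 genes. A549_NT was higher than B2B_NT in 6 (30.4% of all genes) and lower in 11 (26.5% of all genes). With library size scaling the counts were 4 higher and 14 lower. The largest differences were in RMI2, at 33.9 and 32.6 CPM in A549_NT, against 6.42 and 6.35 CPM in B2B_NT (2.38 ± 0.14, adjusted p = 2.09e-09), and in BRIP1, at 34.3 and 43.9 CPM in A549_NT, against 192 and 173 CPM in B2B_NT (-2.22 ± 0.16, adjusted p = 2.2e-08). Both were far apart relative to the spread of either pair. Of the other genes higher in A549, FANCF was at 1.58 ± 0.18, FANCL at 1.33 ± 0.15, NBN at 0.77 ± 0.14, XRCC3 at 0.56 ± 0.14 and MSH6 at 0.54 ± 0.10.

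BRCA2 had less transcript in A549, at 34.1 and 54.96 CPM in A549_NT, against 115 and 110.0 CPM in B2B_NT (-1.34 ± 0.21, adjusted p = 6.64e-05), and FANCE likewise, at 8.39 and 8.12 CPM in A549_NT, against 23.8 and 23.4 CPM in B2B_NT (-1.51 ± 0.17, adjusted p = 2.99e-06). The other genes lower in A549 were RAD54L (-1.10), ATM (-0.89), FANCB (-0.83), BARD1 (-0.74), RAD51AP1 (-0.73), EME1 (-0.68), RMI1 (-0.54) and PALB2 (-0.51). BRCA1 was at -0.28 ± 0.11 and was not called. Calls were lost for PALB2 without A549_NT replicate 1 (-0.47) or B2B_NT replicate 1 (-0.42), for RMI1 without A549_NT replicate 1 (-0.46, adjusted p = 0.107) or B2B_NT replicate 1 (-0.45, adjusted p = 0.104) and for MSH6 without B2B_NT replicate 2 (0.50). The GC correction gave 0.31 for XRCC3, -0.49 for PALB2 and -0.36 for RMI1, all inside the fold minimum, and library size scaling 0.43 for XRCC3 and 0.42 for MSH6. Genes counted almost only in the other line stood at 0.415% of their level there in A549_NT replicate 2 and at 0.622% in B2B_NT replicate 2, the highest shares among the 4 untreated libraries.

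Whether a change differed between the lines was tested as the log2 fold change in A549 minus that in B2B. Under SP600125 this difference was called negative for 19 of the 36 genes and positive for 1, where 13.1% of all genes were called negative and 12.1% positive. The median difference over the 36 genes was -0.67, and over all genes -0.01. Under SR11302 it was called negative for 7 and positive for 0, against 7.41% and 8.34% of all genes, with a median of -0.16. These differences are built from the same NT libraries as the comparisons above.

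The widest gaps under SP600125 were in RMI2 (-1.67 ± 0.19, adjusted p = 4.27e-05), which rose in B2B alone, and in UBE2T (-1.56 ± 0.19, adjusted p = 8.74e-05), RAD54L (-1.53 ± 0.22, adjusted p = 0.000236) and XRCC3 (-1.35 ± 0.21, adjusted p = 0.000448), which fell in A549. These 4 kept their call without each of the 8 libraries involved. So did FANCC at -1.13, POLQ at -1.07, FANCI at -1.02, FANCD2 at -0.97, CHEK2 at -0.89, CHEK1 at -0.85, MSH6 at -0.78 and BRCA1 at -0.78. FANCF was the gene with a positive difference (1.34 ± 0.26, adjusted p = 0.00239), and it too kept its call in all 8 cases. The difference in FANCA was -0.70 ± 0.22, adjusted p = 0.0285, and the call was lost whichever of the 8 libraries was left out (-0.76 to -0.64).

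The other called differences under SP600125 rested on more of the libraries. BARD1 at -0.69 and PALB2 at -0.50 lost the call in 7 of the 8 cases and kept it without A549_NT replicate 1 for BARD1 and without B2B_NT replicate 1 for PALB2, over ranges of -0.90 to -0.43 and -0.59 to -0.41. FANCG at -0.73 kept it in 4 and lost it without A549_NT replicate 1, B2B_NT replicate 1, A549_SP600125 replicate 2 or B2B_SP600125 replicate 2 (-0.79 to -0.63). The call held in 5 cases for XRCC2 at -0.90, and in 6 each for FANCE at -0.99 and EME1 at -0.84. XRCC2 lost it without A549_NT replicate 2 (-0.75, adjusted p = 0.0573), A549_SP600125 replicate 2 (-0.81, adjusted p = 0.0676) or B2B_SP600125 replicate 1 (-0.85, adjusted p = 0.0565), FANCE without A549_SP600125 replicate 2 (-0.80, adjusted p = 0.0933) or B2B_SP600125 replicate 2 (-0.80, adjusted p = 0.053), and EME1 without A549_SP600125 replicate 2 (-0.70, adjusted p = 0.0635) or B2B_SP600125 replicate 1 (-0.72, adjusted p = 0.0586). PALB2 was not called with DESeq2 (-0.49), without the low count filter (-0.50, adjusted p = 0.0658) or with the compared groups alone (-0.47). BARD1 was not called with a replicate block (-0.68, adjusted p = 0.0634). With the GC correction FANCA, FANCE and FANCG were no longer called, at -0.42, adjusted p = 0.0533 for FANCA, -0.66, adjusted p = 0.0696 for FANCE and -0.40 for FANCG. That correction also added negative calls for RMI1 (-1.28), BRCA2 (-1.05), RAD51AP1 (-1.02), BLM (-0.67), FANCL (-0.66) and EXO1 (-0.54). The counts were then 22 negative and 1 positive.

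Under SR11302 the called differences were in UBE2T (-0.96 ± 0.19, adjusted p = 0.00374), CHEK2 (-0.95 ± 0.19, adjusted p = 0.00377), FANCC (-0.93 ± 0.17, adjusted p = 0.00237) and BRCA1 (-0.86 ± 0.16, adjusted p = 0.00255), each kept without any of the 8 libraries. RMI2 (-0.78) and FANCD2 (-0.55) kept the call in 4 of the 8 cases, and FANCG (-0.61) in 2. FANCG lost it also with library size scaling (-0.57, adjusted p = 0.0505), the compared groups alone (-0.55, adjusted p = 0.111) and the GC correction (-0.37, adjusted p = 0.0575), and FANCD2 with the compared groups alone (-0.50, adjusted p = 0.0583). RMI2 lost it without A549_NT replicate 1, B2B_NT replicate 1, B2B_NT replicate 2 or B2B_SR11302 replicate 1 (-0.86 to -0.67), FANCD2 without A549_NT replicate 2, B2B_NT replicate 1, B2B_NT replicate 2 or A549_SR11302 replicate 2 (-0.62 to -0.44) and FANCG in all but the cases without A549_SR11302 replicate 1 or B2B_SR11302 replicate 1 (-0.81 to -0.38). In 6 of the 7 genes the signs were opposite, as in UBE2T at -0.47 in A549 and 0.49 in B2B, FANCC at -0.65 and 0.27, RMI2 at -0.23 and 0.55 and FANCG at -0.31 and 0.30. The B2B values of CHEK2 and BRCA1 were 0.11 ± 0.13 and 0.08 ± 0.11, within 1 SE of 0, and FANCD2 was negative in both lines, at -0.58 in A549 and -0.03 in B2B. The GC correction added negative calls for RMI1 (-0.86), FANCL (-0.77) and CHEK1 (-0.56) and a positive call for MUS81 (0.51). The counts were then 9 negative and 1 positive.

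**Figure D4:**
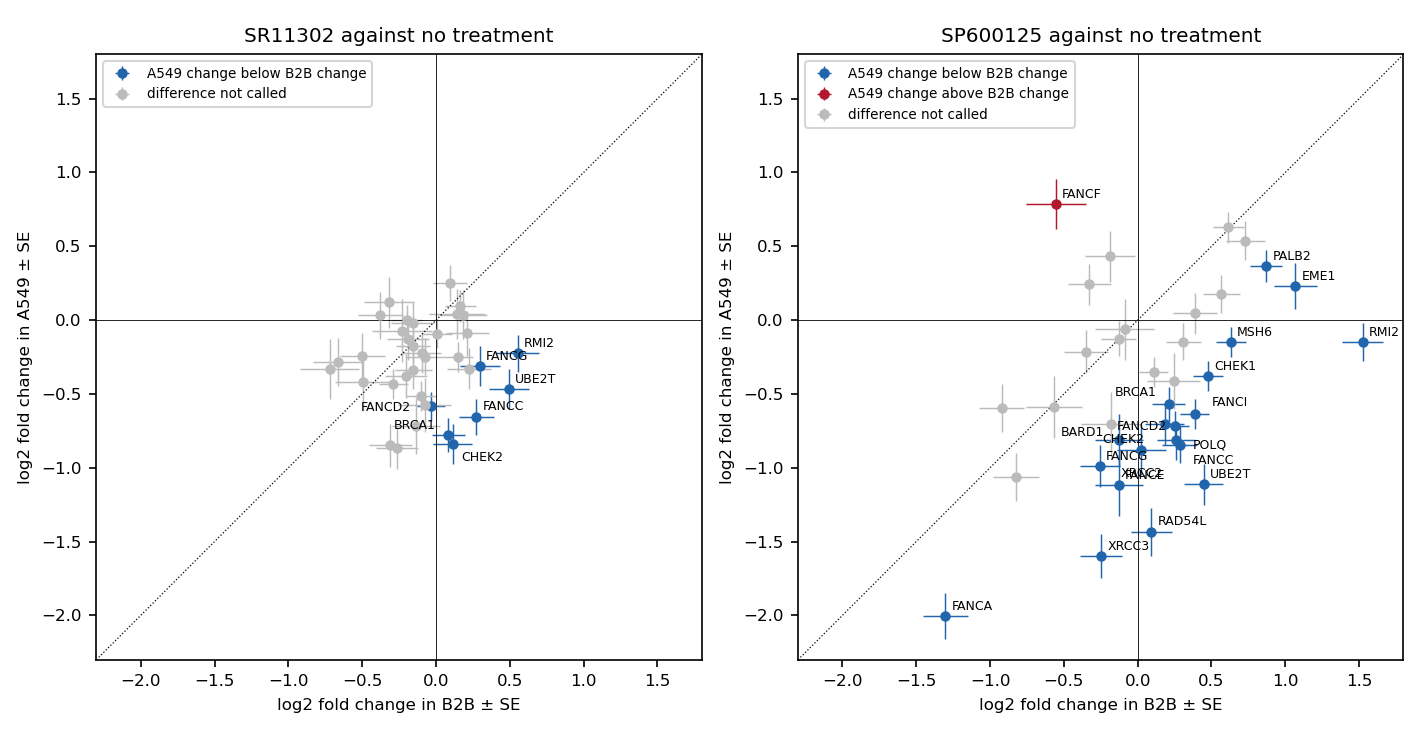
Log2 fold change ± SE of the 36 genes in A549 (vertical axis) against that in B2B (horizontal axis), under SR11302 (left) and SP600125 (right), with a dotted line where both are equal. Blue points, 7 on the left and 19 on the right, have a called negative difference and lie below the line, and FANCF on the right is the red point above it.

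Across genes, changes followed the GC content of the transcript, so a second fit removed that trend from each library. Over 15773 genes with a GC value, Spearman's rho between GC content and log2 fold change was -0.39 under SP600125 and -0.18 under SR11302 in A549, and -0.12 and 0.13 in B2B. Over the 36 genes it was -0.43 and -0.40 in A549, and 0.09 and 0.26 in B2B. For the difference between lines, rho over the 36 genes was -0.55 under SP600125 and -0.54 under SR11302, and over all genes -0.33 and -0.275. These are correlations across genes measured in the same libraries and are given as a description. FANCA, XRCC3, RAD54L, FANCE, FANCG and MUS81 have a GC content of 52.96 to 62.8%, and RMI1, RAD51AP1 and BRCA2 have the lowest, at 34.9, 35.8 and 36.2%.

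With the GC correction the rho over all genes was 0.01 under SP600125 and 0.002 under SR11302 in A549. The counts were then 23 lower and 1 higher under SP600125, and 12 lower and 0 higher under SR11302. FANCA was -1.72 and XRCC3 -0.80 under SP600125, against -2.003 and -1.60 without the correction. Genes of low GC content moved the other way, RMI1 to -0.87, CHEK1 to -0.71, BLM to -0.69, RAD51AP1 to -0.59, ATR to -0.57 and RAD54B to -0.54, all called. In B2B under SP600125 the counts were 4 higher and 4 lower. Whether the GC trend arose in the cells or in the libraries was not tested.

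**Figure D5:**
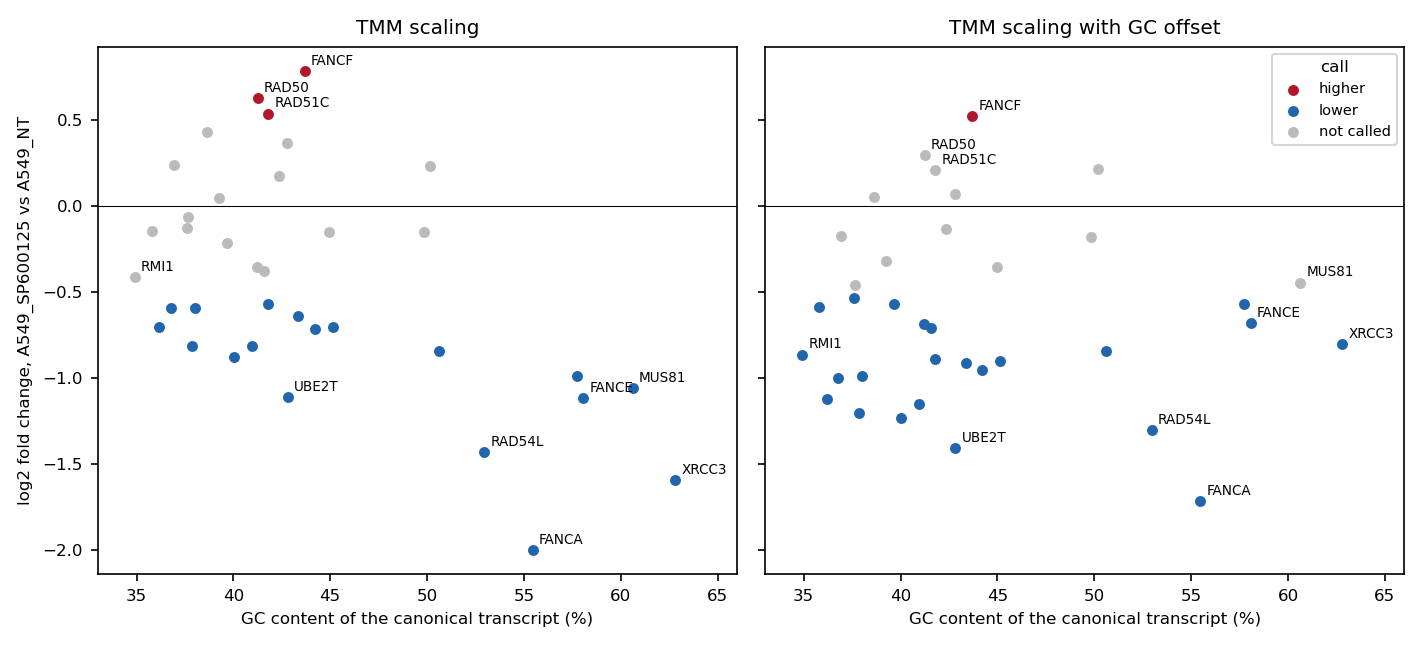
Log2 fold change of the 36 genes in A549_SP600125 against A549_NT (vertical axis) by GC content of the canonical transcript in percent (horizontal axis), with TMM scaling (left) and with the GC offset added (right), called genes in red or blue. The 18 blue and 3 red points on the left become 23 blue and 1 red on the right, and FANCA stays lowest in both.

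A further 52 genes of the same pathways, outside the 36, were counted in the same fit. In A549 they gave 6 lower and 1 higher under SR11302 (median -0.08), where all genes gave 13.0% lower and 14.8% higher, and 16 lower and 10 higher under SP600125 (median -0.16), where all genes gave 25.0% and 23.9%. In B2B they gave 5 lower and 4 higher under SR11302 (median 0.02), against 11.1% and 11.4% of all genes, and 11 lower and 14 higher under SP600125 (median 0.13), against 22.6% and 21.2%. CLSPN, the adaptor through which ATR activates CHEK1, fell in A549 under SR11302 and SP600125 (-1.49 ± 0.12 and -2.03 ± 0.12), and TIPIN, which protects forks, was at -0.88 ± 0.16 and -1.18 ± 0.16.

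Under SP600125 in A549 the largest falls of that list were in RTEL1, a helicase (-3.32 ± 0.52), CENPX, a partner of FANCM (-2.35 ± 0.24), CLSPN and EME2, a partner of MUS81 (-1.99 ± 0.33). RTEL1 lay near the floor, at 0.149 and 0.207 CPM in A549_SP600125, against 1.89 and 1.81 CPM in A549_NT. EME2 was low too, at 1.79 and 1.65 CPM, against 7.95 and 5.73 CPM. In B2B under SP600125 EME2 fell as well (-2.55 ± 0.37), while CENPS, the other partner of FANCM, rose (1.33 ± 0.22), with SPIDR (1.31 ± 0.11), a scaffold protein that binds BLM, and CENPX fell (-1.19 ± 0.22). EME2 was at 0.624 and 1.03 CPM in B2B_SP600125, against 5.22 and 4.4 CPM in B2B_NT. CENPS was at 5.15 and 5.6 CPM, against 2.16 and 2.12 CPM, so both were low in B2B. In B2B under SR11302 the largest changes were in CENPS (1.14 ± 0.22), EME2 (-0.97 ± 0.30), RAD52, an annealing protein (-0.79 ± 0.13), and ABRAXAS1, a member of a BRCA1 complex (-0.67 ± 0.17).

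Between the untreated lines the 52 genes gave 14 lower and 10 higher in A549 (26.5% and 30.4% of all genes), led by SFR1 (1.39 ± 0.19) and BABAM2 (1.25 ± 0.12) as higher and USP1, which removes ubiquitin from FANCD2, as lower (-1.09 ± 0.14). For the difference between lines, 12 were called negative and 4 positive under SP600125, where all genes gave 13.1% and 12.1%. Under SR11302 4 were negative and 2 positive, against 7.41% and 8.34% of all genes.

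Genes of other routes of break and mismatch repair were counted in the same way, and the shares called among all genes in these comparisons are those given above (14.8% higher and 13.0% lower in A549 under SR11302, and 23.9% and 25.0% under SP600125, 11.4% and 11.1% in B2B under SR11302, and 21.2% and 22.6% under SP600125). Of 18 end joining genes in the files, A549 had 1 lower and 2 higher under SR11302 and 4 lower and 3 higher under SP600125, and B2B had 1 lower and 1 higher and 4 lower and 2 higher. PAXX, an accessory of the Ku complex, fell in A549 under SP600125 (-1.36 ± 0.21) while LIG4, the end joining ligase, rose (1.12 ± 0.23). Of 8 mismatch repair genes, A549 had 1 lower and 0 higher under SR11302 and 1 lower and 0 higher under SP600125, with LIG1, the replicative ligase, at -0.83 ± 0.15, and B2B had 1 lower and 0 higher and 0 lower and 2 higher, with PCNA, the sliding clamp, at 1.19 ± 0.11. Between the untreated lines the counts were 5 lower and 3 higher for end joining and 1 lower and 4 higher for mismatch repair. Of all genes, 26.5% were lower and 30.4% higher in A549_NT than in B2B_NT.

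Genes that mark cycling cells were mostly lower in A549 under SP600125. Of 18 such genes A549 had 6 lower and 0 higher under SR11302 (median -0.40) and 14 lower and 1 higher under SP600125 (median -1.01). Of all genes in A549, 13.0% were lower and 14.8% higher under SR11302, and 25.0% and 23.9% under SP600125. RRM2, the S phase subunit of ribonucleotide reductase, was at -1.02 ± 0.14 and -2.70 ± 0.15, the licensing factor CDT1 at -0.83 ± 0.16 and -2.23 ± 0.18, and the proliferation marker MKI67 at -1.46 ± 0.14 under SP600125. The exception that rose was TOP2A, a topoisomerase of G2 and mitosis (0.52 ± 0.13). In B2B the counts were 0 lower and 1 higher under SR11302 (median 0.24) and 2 lower and 4 higher under SP600125 (median 0.30), with CCNE1, a cyclin of the G1 to S transition, at 1.33 ± 0.14. All genes in B2B gave 11.1% lower and 11.4% higher under SR11302, and 22.6% and 21.2% under SP600125. The difference between lines was called negative for 16 of the 18 under SP600125 and for 10 under SR11302, and positive for none. Of all genes, 13.1% were called negative and 12.1% positive under SP600125, and 7.41% and 8.34% under SR11302. The part of these genes' shift in the repair results was not tested.

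Factors that drive or restrain cell cycle transcription, and targets of p53, were counted as well. The shares of all genes in A549 were 13.0% lower and 14.8% higher under SR11302, and 25.0% and 23.9% under SP600125. In B2B they were 11.1% and 11.4% under SR11302, and 22.6% and 21.2% under SP600125. Of 19 E2F, RB and DREAM genes A549 had 6 lower and 4 higher under SR11302 and 7 lower and 4 higher under SP600125, with E2F8 at -1.16 ± 0.12 and -1.88 ± 0.13, E2F2 at -2.13 ± 0.15 and the pocket protein RBL2 higher (0.79 ± 0.13 and 1.73 ± 0.14). B2B had 0 lower and 3 higher and 0 lower and 8 higher, with E2F5 (1.47 ± 0.30) and RBL2 (1.33 ± 0.13) among them. E2F5 was low there, at 3.53 and 2.13 CPM in B2B_SP600125, against 0.718 and 1.3 CPM in B2B_NT. Of 16 p53 targets A549 had 0 lower and 16 higher under SR11302 and 0 lower and 13 higher under SP600125, B2B 2 lower and 0 higher under SR11302 and 0 lower and 12 higher under SP600125. CDKN1A, the inhibitor p21 of cyclin-dependent kinases, rose in A549 (1.60 ± 0.11 and 1.33 ± 0.11) and in B2B under SP600125 (1.58 ± 0.11), and TP53INP1 was at 2.83 ± 0.32 and 4.11 ± 0.32 in A549. The part of these genes in the repair results was not tested.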

How the data were processed

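Each of the 12 libraries (KAPA mRNA HyperPrep) came as a table of read counts per gene symbol. According to the labels and methods, the authors aligned reads to hg38 with STAR 2.7.10a and counted them with HTSeq 1.99.2, and the deposited values are those whole-number counts, not normalised. The sources used here do not give the strand setting, read length or annotation release. The tally lines at the end of each table (no feature, ambiguous, not unique and others) were left out of library sizes and tests. Reads in no feature were 14.6 to 25.9%, ambiguous reads 1.19 to 2.03% and reads aligned to more than one place 14.9 to 24.6% of the total.

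Counts were fitted in R 4.3.3 with edgeR 4.0.16 (filterByExpr, TMM, quasi-likelihood F test, Benjamini-Hochberg adjustment) in a model of the 6 groups, with 16373 genes tested and 6 residual degrees of freedom. Fold changes are those of this fit with their standard errors, and an interaction is the change in A549 minus that in B2B. The fit was tested on simulated counts. The sources do not say whether the 2 libraries of a group came from separate cultures, so p-values measure the spread between these libraries only. Alternatives were DESeq2 1.42.0, library size scaling, no filter on low counts, a replicate block, the compared groups alone, a GC offset (lowess span 0.3 over GC content of the transcript, per library), no fold minimum and each library left out. GC content, exon overlap and coordinates are from GENCODE v44, to which 24523 of 26485 symbols matched, 1362 through older symbols.

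The members and lists were chosen with earlier results of these data known. Each of the 36 genes is named, with values per library for up to 6 called genes per direction and treatment comparison with the largest change, where the higher group averaged 1 CPM or more, and for others where the lines are set side by side. Up to 4 called genes with the largest change are named from each further list and comparison, with some of their values in other comparisons. Results of 1 further gene are not reported here.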

Additional observations from a re-analysis of the deposited data

Results flagged for a closer look

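The effect of an inhibitor differed between the lines, by edgeR's test of the interaction (adjusted p under 0.05 and an absolute log2 difference of at least 0.5), for 20 of the 36 genes under SP600125 and 7 under SR11302. Each value is the log2 fold change in A549 minus that in B2B. Under SR11302 the differences were UBE2T -0.96, CHEK2 -0.95, FANCC -0.93, BRCA1 -0.86, RMI2 -0.78, FANCG -0.61 and FANCD2 -0.55. Under SP600125 the negative differences were RMI2 -1.67, UBE2T -1.56, RAD54L -1.53, XRCC3 -1.35, FANCC -1.13, POLQ -1.07, FANCI -1.02, FANCE -0.99, FANCD2 -0.97, XRCC2 -0.90, CHEK2 -0.89, CHEK1 -0.85, EME1 -0.84, MSH6 -0.78, BRCA1 -0.78, FANCG -0.73, FANCA -0.70, BARD1 -0.69 and PALB2 -0.50. The positive one was FANCF 1.34. Of all genes tested, 12.1% had a called positive and 13.1% a called negative difference under SP600125, and 8.34% and 7.41% under SR11302. Every group has 2 libraries, so a single library standing apart from its group could not be looked for.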

How the results depend on the processing

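No called value of the 36 genes changed sign under any alternative run, and counts of called genes moved by over 1.5 times in few. Under SP600125 in A549, the 3 higher genes became 1 with the GC offset, with or without the replicate block, and 5 with no fold minimum. In B2B under SP600125, the 7 higher became 11 with library size scaling, 4 with the GC offset, with or without the block, and 13 with no fold minimum, and the 5 lower became 3 with library size scaling. In B2B under SR11302, the 1 higher became 2 with library size scaling, without the low count filter or with no fold minimum, and the 2 lower became 4 when the compared groups were fitted alone or with no fold minimum. For the difference between lines, the 1 positive under SP600125 became 2 with DESeq2 and 3 without the filter or with the compared groups alone, and the 0 positive under SR11302 became 1 with the GC offset, with or without the block.

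With each library left out, counts were 8 to 11 lower in A549 under SR11302, 3 to 3 higher and 14 to 18 lower in A549 under SP600125, 0 to 1 higher and 0 to 2 lower in B2B under SR11302, 6 to 8 higher and 3 to 4 lower in B2B under SP600125, and 5 to 7 higher and 10 to 12 lower between the untreated lines. The differences between lines were 0 to 2 positive and 4 to 10 negative under SR11302, and 1 to 3 positive and 12 to 16 negative under SP600125, lowest without A549_SP600125 replicate 2. These fits leave 1 library in a group, which is assumed to vary like the other groups. The cause of these moves was not tested.

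Over the 252 values of the 36 genes in 7 comparisons, DESeq2 removed 1 call and added 5, library size scaling removed 10 and added 11, and the GC offset removed 15 and added 23. Replicate numbers did not pair the libraries, with correlations of same-numbered deviations from -0.48 to 0.44 over 15 pairs of groups. With the replicate block, the counts of negative differences were 18 under SP600125, without BARD1, and 6 under SR11302, without FANCG (-0.61, adjusted p = 0.0655). MUS81 was then called lower in untreated A549 at -0.50, all other calls being the same. In the 150 bases before the start alone, CCAAT lay in 14, TGACGTCA in 2, CHR in 1 and TGANTCA in 0 of 32 promoters. The shares of all promoters in that window were 24.4% for CCAAT, 1.5% for TGACGTCA, 7.4% for CHR and 4.1% for TGANTCA. RAD54L, FANCB, FANCE, FANCF and RMI2 lie under 10 CPM in some libraries, where depth limits precision more.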
